A study of Schizosaccharomyces pombe with 6 samples.

Results

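Transcripts of 10 enzymes of lower glycolysis and ethanol fermentation were followed in fission yeast (*Schizosaccharomyces pombe*) cells that lack inositol pyrophosphatase activities and the protein Spx1. The members were named by their systematic IDs, in a choice made with earlier results of these data known. They are *fba1* (SPBC19C2.07), *tpi1* (SPCC24B10.21), *tdh1* (SPBC32F12.11), *gpd3* (SPBC354.12), *pgk1* (SPBC14F5.04c), *gpm1* (SPAC26F1.06), *eno101* (SPBC1815.01), *pyk1* (SPAC4H3.10c), the pyruvate decarboxylase gene SPAC1F8.07c (*pdc101* in the annotation), and *adh1* (SPCC13B11.01). These are 10 of 6988 features in the count table. All 10 passed the filter on low counts, as did 5947 features in all.

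RNA-seq of poly(A)+ RNA was performed on 3 biological replicate cultures of a wild-type haploid (*h-*, genotype WT) and 3 of an *asp1-H397A aps1*∆ *siw14*∆ *spx1*∆ haploid (*h-*, called the mutant below), each grown at 30°C in ePMGT medium and harvested in log phase. In the mutant, *asp1-H397A* is marked with natMX, *aps1*∆ with kanMX, *siw14*∆ with hygMX, and *spx1*∆ with ura4MX. The sample labels give both strains as *h-*, while the paper's strain list gives *h+* for the strain with these alleles and markers. That list also gives its strains mutant alleles of *leu1*, *ura4*, *his3*, and *ade6*, but has no entry for the wild-type strain. The *asp1-H397A* allele inactivates the pyrophosphatase domain of Asp1, which is also a kinase, and Aps1 and Siw14 are the other known inositol pyrophosphatases. Spx1 is a protein whose loss was combined with theirs. The paper describes it as a sensor of inositol pyrophosphates and reports that deleting it suppresses the growth defect of cells without these activities. The labels name 1 strain per genotype, so the replicates are cultures of 1 strain each. The separate effects of the 4 alleles and of their marker genes, *ura4* among them, cannot be told apart.

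Libraries held 16593476 to 22690741 counts. *aps1* and *siw14* were low in every mutant library, with log2 fold changes of −3.53 and −4.79. *asp1*, which carries the H397A allele, was lower too (−0.50, adjusted p = 0.00967 from edgeR), with no overlap between the strains. *ura4*, the marker gene of *spx1*∆, was at 0 counts in each wild-type library and at 8309 to 9631 in the mutant libraries. *spx1* (*pqr1* in the annotation) kept a read density of 40.6 RPKM (reads scaled by exon length and by library total) in the mutant against 124.5 in wild-type cells. Wild-type replicates 1 and 3 were the least alike of any replicate pair (chi-square per degree of freedom of 66.0, against 5.96 to 27.9 for the others), so results are also given without each where that matters.

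Glycolysis splits a hexose into trioses and oxidises them to pyruvate, with a net gain of ATP. In glucose medium, yeasts send most of this pyruvate to ethanol: pyruvate decarboxylase makes acetaldehyde and alcohol dehydrogenase reduces it, which returns the NAD that glyceraldehyde-3-phosphate dehydrogenase needs. The enzymes are among the most abundant proteins of the cell, and several steps have more than 1 gene.

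In the mutant, 7 of the 10 transcripts were higher, 0 were lower, and 3 did not pass the test. The 7 were *tdh1*, *gpd3*, *eno101*, *pgk1*, *pdc101*, *pyk1*, and *fba1*, with log2 fold changes of 0.45 to 1.00, and the 3 were *adh1*, *gpm1*, and *tpi1*. The median log2 fold change of the 10 was 0.49, against 0.00 over all genes tested. Of all genes tested, 5.33% were higher and 7.03% lower by the same rule, an adjusted p of at most 0.05 in the quasi-likelihood test of edgeR. The study's cutoffs also ask for a 2-fold change and for at least 100 normalized counts on average in the higher strain. They were met by 0 of the 10 genes (8 had an unadjusted p under 0.05), while 0.37% of all genes met them upward and 1.72% downward. *tdh1*, with a log2 fold change of 0.998, stood just under the fold cutoff and met it in 5 of 17 alternative settings, DESeq2 among them. The study, which used DESeq2, does not list *tdh1* among its upregulated transcripts. Leaving out wild-type replicate 1 gave 1.11 and leaving out mutant replicate 3 gave 1.10. In 8 of the 10 genes every mutant library was above every wild-type library, an arrangement found in 16.4% of all genes, and none was lower in every mutant library, which was so for 17.3% of all genes. The size of these changes depended on a correction for GC content and length that is described after the single genes. In RNA from whole cultures, more transcript per cell and more cells expressing it cannot be told apart.

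Both genes for glyceraldehyde-3-phosphate dehydrogenase were measured, and their sequences decide how well their counts can be separated. The coding sequences of *tdh1* and *gpd3* are 93.2% identical over 1008 aligned bases, with a longest identical run of 203 bases (577 to 779 of the *tdh1* coding sequence). Of windows as long as 1 read of a pair, 230 of 1407 in *tdh1* exons (16.3%) and 230 of 1347 in *gpd3* exons (17.1%) occur more than once in the genome, while 0 do in the other 8 genes. The counts of this pair are therefore uncertain, as the treatment of reads with more than 1 match was not given in the sources used here. Printed next are 2 stretches of each gene, 5′ to 3′ and read by systematic ID from RefSeq's annotation of ASM294v3, which show what a read can and cannot separate. The first pair covers coding bases 316 to 375 of both genes (chromosome II, plus strand), where 60 of 60 bases match. The second covers coding bases 38 to 97, the least alike stretch, with 15 mismatches in capitals.
tdh1, 316 to 375: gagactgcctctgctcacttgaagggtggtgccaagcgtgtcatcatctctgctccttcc
gpd3, 316 to 375: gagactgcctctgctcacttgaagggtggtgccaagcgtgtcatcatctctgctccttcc
tdh1, 38 to 97: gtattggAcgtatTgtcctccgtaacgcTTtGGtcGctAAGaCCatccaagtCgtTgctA
gpd3, 38 to 97: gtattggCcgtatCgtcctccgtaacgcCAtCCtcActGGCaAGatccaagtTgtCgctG

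The 2 enolase genes are far less alike, with 63.3% identity over 1320 aligned bases and a longest identical run of 18 bases. Their most alike stretch of 60 bases, coding bases 169 to 228 of *eno101* (chromosome II, plus strand) and 172 to 231 of *eno102* (chromosome II, minus strand), still holds 11 mismatches, in capitals. It is shown because no window of the *eno101* exons recurs in the genome, even here.
eno101: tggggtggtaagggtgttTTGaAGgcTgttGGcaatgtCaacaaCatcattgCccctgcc
eno102: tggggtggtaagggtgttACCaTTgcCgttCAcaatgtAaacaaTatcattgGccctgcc

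The first 2 of the 10 enzymes handle the trioses before oxidation. *fba1* encodes fructose-bisphosphate aldolase, which cleaves fructose 1,6-bisphosphate into both triose phosphates. It had 165944, 167502, and 195169 normalized counts in wild-type replicates 1, 2, and 3 and 248070, 242651, and 229259 in the mutant. All 3 mutant libraries were higher than the highest wild-type library, and the log2 fold change was 0.45 (standard error, SE, 0.11; edgeR adjusted p = 0.0179). The call was lost without wild-type replicate 2 (adjusted p = 0.132) and without any of the 3 mutant replicates (0.0714 to 0.0987).

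*tpi1* encodes triosephosphate isomerase, which interconverts the 2 triose phosphates. It had 116453, 134860, and 156706 normalized counts in wild-type cells against 132930, 124206, and 118829 in the mutant. The mutant libraries lay within the range of the wild-type libraries, and wild-type replicates 1 and 3 gave the lowest and highest values of the 6. The log2 fold change was −0.12 (95% interval −0.38 to 0.15, adjusted p = 0.588 from edgeR), the only one of the 10 below 0. Leaving out wild-type replicate 1 gave −0.22 and leaving out wild-type replicate 3 gave −0.01.

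*tdh1* and *gpd3* follow in the pathway and make the NADH that fermentation consumes. *tdh1* had 85729, 69785, and 68191 normalized counts in wild-type cells against 169275, 149601, and 127810 in the mutant. The lowest mutant library was above the highest wild-type library. Its log2 fold change of 1.00 (SE 0.13, edgeR adjusted p = 0.000566) was the largest of the 10. *gpd3*, with fewer counts, had 6707, 6623, and 7858 in wild-type cells against 15260, 12596, and 9825 in the mutant. Mutant replicate 1 was the highest and replicate 3 the lowest for both genes, and neither gene's groups overlapped. The log2 fold change of *gpd3* was 0.83 (SE 0.15, edgeR adjusted p = 0.00385). It ranged from 0.67 without mutant replicate 1 to 0.98 without mutant replicate 3.

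*pgk1* encodes phosphoglycerate kinase, the first ATP-forming step. It had 75532, 77277, and 85627 normalized counts in wild-type cells against 132865, 121810, and 114804 in the mutant, with no overlap and a log2 fold change of 0.63 (SE 0.10, edgeR adjusted p = 0.00233). *gpm1*, for the phosphoglycerate mutase of the next step, behaved otherwise. Its normalized counts were 88696, 100427, and 113009 in wild-type cells against 110747, 108545, and 102626 in the mutant, so that the mutant libraries lay within the wild-type range. The log2 fold change was 0.09 (95% interval −0.15 to 0.33, adjusted p = 0.652 from edgeR), and 0.01 without wild-type replicate 1. The *gpm1* exons share 30 bases with *mug106* on the same strand.

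*eno101* encodes enolase, which makes phosphoenolpyruvate. It had 81817, 74768, and 77508 normalized counts in wild-type cells against 153774, 138461, and 125449 in the mutant. The wild-type libraries were close together and every mutant library was far above them, at a log2 fold change of 0.84 (SE 0.11, edgeR adjusted p = 0.000435). *pyk1*, for pyruvate kinase, the last step of glycolysis, had 85340, 98141, and 106526 in wild-type cells against 137031, 131681, and 130088 in the mutant. Its groups did not overlap, and wild-type replicates 1 and 3 were again the lowest and the highest of their strain. Its log2 fold change was 0.46 (SE 0.11, edgeR adjusted p = 0.0170), and the call was lost without wild-type replicate 2 or any 1 of the mutant replicates (adjusted p = 0.0780 to 0.0889).

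The last 2 enzymes turn pyruvate into ethanol. *pdc101* had 72476, 72779, and 76985 normalized counts in wild-type cells against 110844, 105166, and 101901 in the mutant. The strains did not overlap, with a log2 fold change of 0.52 (SE 0.09, edgeR adjusted p = 0.00456; 0.0505 without wild-type replicate 2). *adh1*, for alcohol dehydrogenase, had 72329, 75338, and 81273 in wild-type cells against 92433, 94125, and 86864 in the mutant. Its groups did not overlap either, but the log2 fold change of 0.26 (95% interval 0.05 to 0.47) did not pass after adjustment over all genes (adjusted p = 0.111 from edgeR). It passed without wild-type replicate 3 (adjusted p = 0.00670) and with library totals in place of TMM scaling (0.0302).

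**Figure D1:**
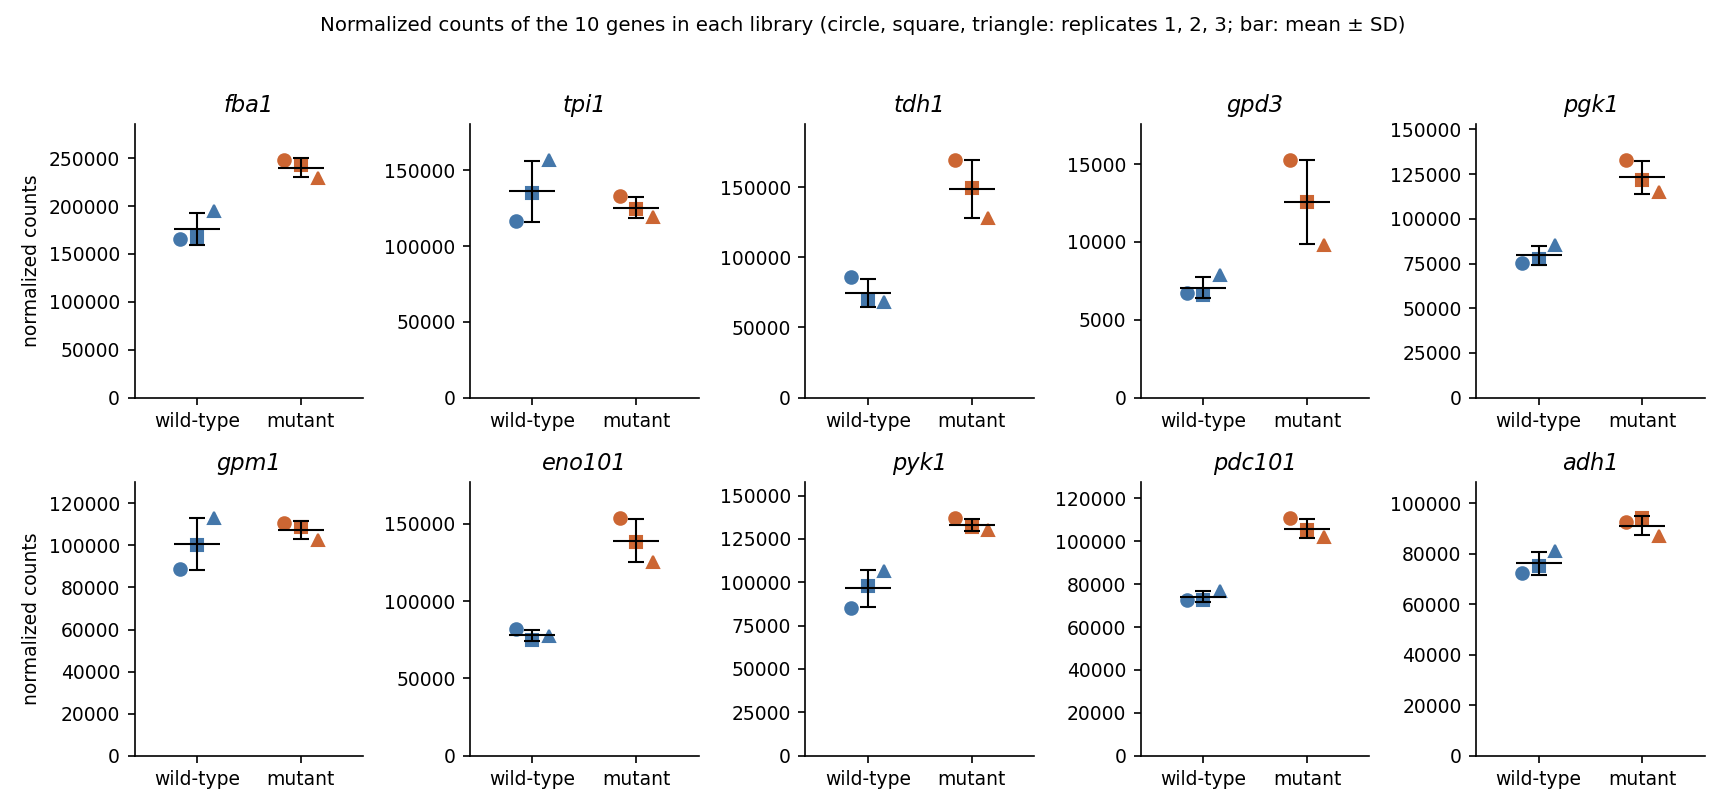
Normalized counts (vertical axis, from 0) of each of the 10 genes in wild-type and mutant cells, in pathway order; symbols are the 3 replicate libraries, and bars give the mean ± SD. The 3 mutant libraries lie above the 3 wild-type libraries for 8 genes and lie within their range for *tpi1* and *gpm1*.

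Annotated genes on the other strand overlap several of the 10. In ASM294v3 a noncoding gene on the opposite strand covers 1641 of 1641 exon bases of *pgk1*, 1598 of 1598 of *adh1*, 1175 of 1933 of *pyk1*, and 643 of 1397 of *gpd3*, and shorter parts of *pdc101*, *fba1*, and *gpm1*. The libraries were made with a directional kit, but whether HTSeq used the strand was not given in the sources used here, and reads of both strands cannot be told apart.

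Levels between genes were compared per length, as RPKM from library totals and ASM294v3 exon lengths, and ranked among the 6836 features that have a length. In wild-type cells *tpi1* (6970 ± 519, SD, n = 3), *fba1* (6777 ± 239), and *gpm1* (6252 ± 299) held ranks 2, 3, and 4. The next group was *eno101* (2649 ± 284), *tdh1* (2542 ± 508), *pyk1* (2457 ± 106), *pgk1* (2385 ± 47.2), and *adh1* (2352 ± 37.4), at ranks 50 to 65. Neighbours within each of these groups overlapped in their libraries and cannot be ordered. *pdc101* (1940 ± 86.7, rank 101) and *gpd3* (248.7 ± 11.4, rank 538) came last, apart from their neighbours.

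In the mutant the order was different. *fba1* was first of all features (9043 ± 411 RPKM, SD, n = 3), followed by *gpm1* (6538 ± 289) and *tpi1* (6311 ± 393), which overlapped. *tdh1* (4927 ± 712) and *eno101* (4606 ± 494), which also overlapped, had moved from ranks 53 and 50 to ranks 4 and 5. *pgk1* (3617 ± 287, rank 13) and *pyk1* (3314 ± 109, rank 19) overlapped as well. *adh1* (2748 ± 124) and *pdc101* (2712 ± 131) overlapped at ranks 41 and 44, and *gpd3* (433.6 ± 96.1) stood at rank 341.

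**Figure D2:**
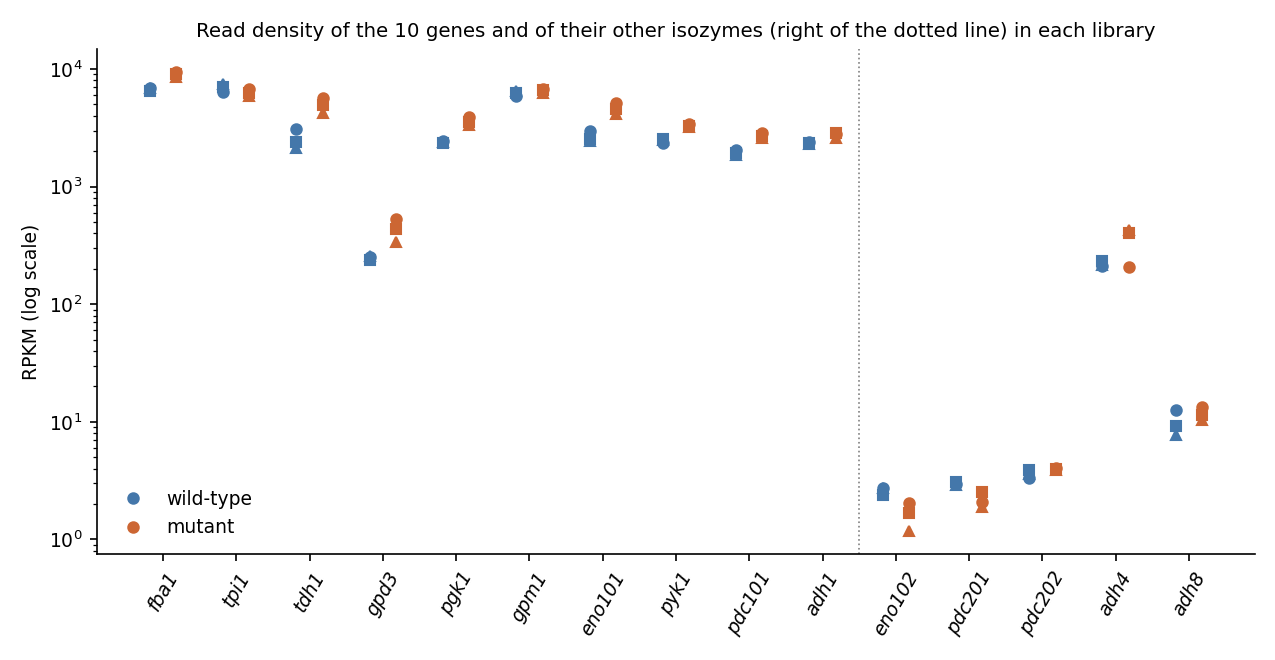
RPKM on a log scale (vertical axis) of the 10 genes in pathway order and, right of the dotted line, of their other isozymes, with 1 symbol per library (circle, square, and triangle for replicates 1, 2, and 3). *gpd3* is the lowest of the 10 in both strains, and the enolase and pyruvate decarboxylase isozymes lie below 5 RPKM in every library.

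Together the 10 genes took 4.50%, 4.36%, and 4.42% of all counts in wild-type replicates 1, 2, and 3 and 6.32%, 5.92%, and 5.50% in the mutant. The share was 1.48 percentage points higher in the mutant, on a measure scaled only by each library's total. No test is given for a sum over chosen genes. The share taken by 137 ribosomal protein genes, the other large class of abundant transcripts in growing yeast, was 17.0%, 17.1%, and 17.3% in wild-type and 15.8%, 16.9%, and 17.1% in mutant libraries. Of those 137 genes 6 were higher and 3 lower, with a median log2 fold change of −0.05.

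The fold change moved with exon length and GC content, and the 10 genes stand apart from most genes in GC content. Over 8 classes of equal size of the coding genes tested, the median log2 fold change went from −0.10 in the class of shortest exons (102 to 826 bases) to 0.11 in that of the longest. It went from −0.05 in the class of lowest GC content (27.8 to 34.7%) to 0.08 in that of the highest (40.4 to 53.9%). All 10 genes belong to the last of these classes, with 43.9% for *tpi1* and 47.2 to 50.6% for the others. Their exon lengths of 791 to 1933 bases lie in length classes 1 to 5 of 8. *gpm1* (791 bases) and *tpi1* (957 bases), whose strains overlapped, have the shortest exons, and the others have 1279 to 1933 bases. Whether exon length bears on this split was not tested. The 139 other coding genes of 43.9 to 50.6% GC had a median of 0.05, and 28 of them (20.1%) were higher. Of these, the 77 ribosomal protein genes had a median of 0.00 with 6 (7.79%) higher, and the remaining 62 genes had a median of 0.22 with 22 (35.5%) higher.

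With offsets for length and GC content in every library, an alternative chosen after seeing the data, the median of the 10 genes fell from 0.49 to 0.20 and 4 of them were higher in place of 7. The 4 were *tdh1* (0.72, adjusted p = 0.0159 from edgeR), *gpd3* (0.57, 0.0418), *eno101* (0.46, 0.0434), and *pgk1* (0.36, 0.0204). *pdc101* (0.21), *pyk1* (0.20), and *fba1* (0.15) no longer passed, and *adh1* and *gpm1* came to −0.02 and −0.08. In the same fit 4.07% of all genes were higher.

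Without wild-type replicate 2 the count of higher genes was also 4 of 10, the same 4 genes, with a median of 0.49, and 1.86% of all genes were higher in that fit. It was 5 without mutant replicate 1, 2, or 3 (2.90%, 2.03%, and 1.70% of all genes). It was 7 without wild-type replicate 1 (10.6% of all genes) and 8 without wild-type replicate 3 (14.3%). Both of the higher counts thus came from the fits that called the largest shares of all genes, and the median of the 10 was 0.45 to 0.54 over these 6 fits.

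**Figure D3:**
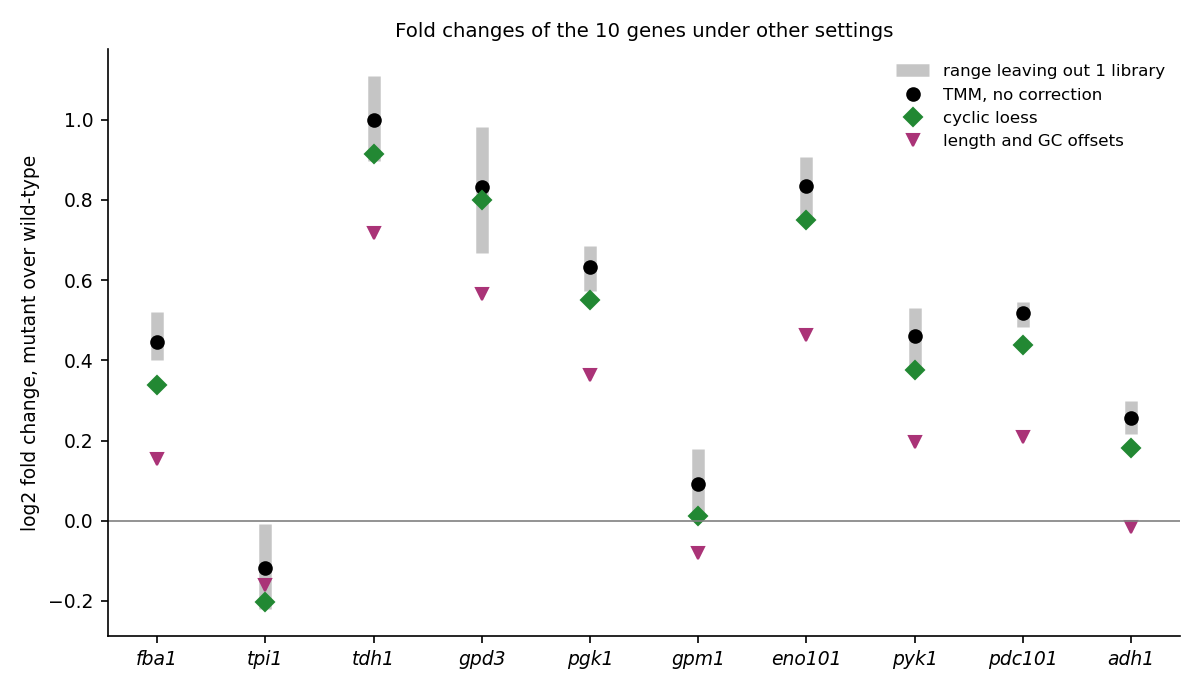
Log2 fold change, mutant over wild-type (vertical axis), of the 10 genes in pathway order as tested (circles), with cyclic loess scaling in limma-voom (diamonds), and with length and GC offsets (triangles); grey bars span the 6 fits that leave out 1 library. *tdh1*, *gpd3*, *eno101*, and *pgk1* stay the 4 highest in each of the 3 fits, and the offsets lower every value.

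Ratios within a library compare 2 genes without any scaling between libraries. They are not corrected for exon length or GC content, and those trends can differ between the 2 genes. With length and GC offsets the log2 fold change was 0.72 for *tdh1* and −0.16 for *tpi1*, and 0.46 for *eno101* and −0.66 for *eno102*. It was 0.21 for *pdc101*, −0.52 for *pdc201*, and 0.09 for *pdc202*. With 3 libraries against 3 the smallest p of the exact permutation test is 0.1, two-sided, so none of the 6 ratios compared could pass 0.05, and the adjusted p was 0.15 for each that reached this minimum and 0.4 for the others. The log2 ratio of *tdh1* to *tpi1* counts was −0.44, −0.95, and −1.20 in wild-type replicates and 0.35, 0.27, and 0.11 in the mutant, a difference of 1.11 (exact p = 0.1). *tdh1* thus had fewer counts than *tpi1* in each wild-type library and more in each mutant library. Per length, *tdh1* stayed below *tpi1* in the mutant too, with 5630, 4944, and 4206 RPKM against 6732, 6249, and 5953. The pair was added after seeing the data and sets the highest of the 10 fold changes against the lowest. The log2 ratio of *tdh1* to *gpd3* was 3.68, 3.397, and 3.12 in wild-type cells against 3.47, 3.57, and 3.70 in the mutant (difference 0.18, exact p = 0.4). These values overlapped, and the pair shares identical stretches, as shown above.

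Of the 6 ratios, that of *eno101* to its isozyme *eno102* had the largest difference between strains. On the log2 scale it was 10.002, 9.98, and 9.71 in wild-type cells against 11.20, 11.32, and 11.68 in the mutant, a difference of 1.503 (exact p = 0.1). *eno102* itself, with 79.8, 74.2, and 92.7 normalized counts in wild-type cells against 65.5, 54.2, and 38.2 in the mutant, did not pass (log2 fold change −0.64, adjusted p = 0.0956 from edgeR), although its strains did not overlap. *eno102* was near 2.60 RPKM in wild-type cells, so its counts have little depth.

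The pyruvate decarboxylase isozymes were as scarce. *pdc201* had 2.97 RPKM in wild-type cells against 2.17 in the mutant, *pdc202* had 3.60 and 3.95, and *pdc102* had 7 counts over all 6 libraries and was not tested. The log2 ratio of *pdc101* to *pdc201* was 9.06, 8.91, and 8.97 in wild-type cells against 10.04, 9.68, and 10.05 in the mutant (difference 0.94, exact p = 0.1). That to *pdc202* was 9.26, 8.95, and 8.99 against 9.46, 9.40, and 9.36 (difference 0.34, exact p = 0.1). In both ratios the strains did not overlap.

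*adh4*, the second alcohol dehydrogenase gene, was the only other isozyme with over 100 RPKM. It had 6025, 6989, and 7110 normalized counts in wild-type cells against 6491, 12629, and 13505 in the mutant. Mutant replicate 1 lay within the wild-type range and the other two mutant libraries far above it. The log2 fold change of 0.70 did not pass (adjusted p = 0.0577 from edgeR), but was 0.96 (0.000871) without mutant replicate 1, 1 of 5 alternatives in which it passed. The log2 ratio of *adh1* to *adh4* followed it, with 3.59, 3.43, and 3.52 against 3.83, 2.90, and 2.69 (difference −0.37, exact p = 0.4). *adh8*, a further alcohol dehydrogenase gene, had 9.85 RPKM in the wild-type strain against 11.7 in the mutant and did not pass (log2 fold change 0.30, adjusted p = 0.316 from edgeR). Mutant replicate 1, low in *adh4*, was the highest or second of the mutant libraries in each of the 10 genes.

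**Figure D4:**
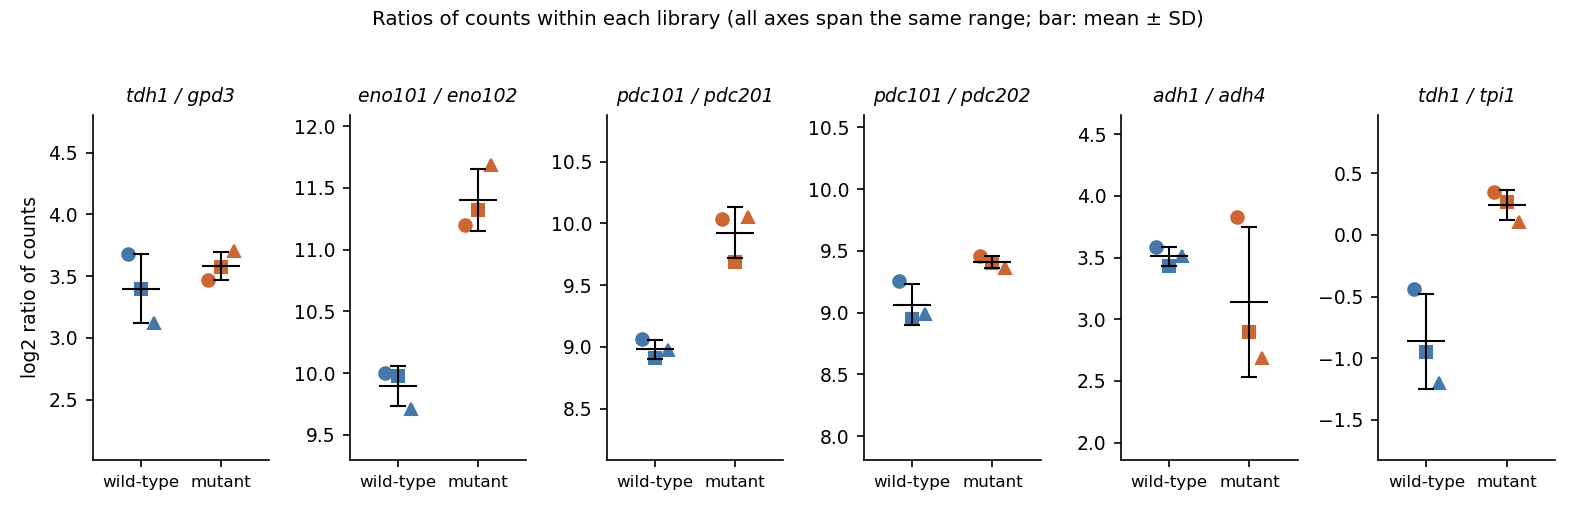
Log2 ratio of the counts of 2 genes within each library (vertical axes, all of the same span) for the 6 pairs compared, with 3 replicate libraries per strain and bars for the mean ± SD. The strains do not overlap for *eno101* to *eno102*, *pdc101* to *pdc201*, *pdc101* to *pdc202*, and *tdh1* to *tpi1*.

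The enzymes upstream, from hexose to fructose 1,6-bisphosphate, were measured for comparison. Of 4 genes 1 was higher, *pfk1*, which encodes phosphofructokinase, the committed step. It had 28464, 29401, and 33307 normalized counts in wild-type cells against 46316, 46575, and 42689 in the mutant, which gave a log2 fold change of 0.57 (SE 0.10, edgeR adjusted p = 0.00354). The strains did not overlap. The hexokinase genes *hxk1* (0.04) and *hxk2* (0.21) and the phosphoglucose isomerase gene *pgi1* (0.08) did not pass.

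Routes that branch from or follow glycolysis were counted list by list. Over 10 lists with 53 genes tested in all, upper glycolysis and the minor isozymes included, 3 genes (5.66%) were higher and 7 (13.2%) were lower, near the background upward and above it downward, with a median log2 fold change of −0.11. Of 6 glycerol genes 2 were lower, the dihydroxyacetone kinase genes *dak2* (−1.31) and *dak1* (−0.41), whose enzymes make dihydroxyacetone phosphate, a substrate of triosephosphate isomerase. *dak2* met the study's cutoffs, with 650.7, 883.4, and 920.2 normalized counts in wild-type cells against 260.1, 380.5, and 351.1 in the mutant. Of 3 aldehyde dehydrogenase genes 1 was lower and met the cutoffs, *atd2* (−1.48, adjusted p = 0.000337 from edgeR), with 1340, 1164, and 816.5 against 421.0, 359.0, and 411.7. Aldehyde dehydrogenases oxidise acetaldehyde to acetate, beside the step of *adh1*. *atd1*, with a mean of 33868 normalized counts in wild-type cells, did not pass (−0.20, adjusted p = 0.21 from edgeR). *atd3* did not pass either (−0.22, 0.344). The strains did not overlap for *dak2*, *atd1*, *atd2*, and *atd3*.

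In the pentose phosphate pathway 1 of 6 genes was higher, the transketolase gene *tkt1*. Its normalized counts were 28089, 29565, and 31879 in wild-type cells against 43286, 43525, and 43279 in the mutant, with a log2 fold change of 0.54 (SE 0.09, edgeR adjusted p = 0.00337). The mutant libraries were nearly equal and all above wild-type. The oxidative enzyme gene *zwf1* (−0.29) and the transaldolase gene *tal1* (−0.31) did not pass. Of 3 trehalose genes the neutral trehalase gene *ntp1* was lower (−0.65, adjusted p = 0.0248 from edgeR), and *tps1*, for the synthase, did not pass (−0.50, 0.0827). *fbp1*, the fructose-bisphosphatase gene of gluconeogenesis and a classic glucose-repressed transcript, averaged 177.6 ± 33.3 normalized counts (SD, n = 3) in the wild-type strain against 139.4 ± 13.7, and did not pass (−0.35, adjusted p = 0.252 from edgeR).

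Pyruvate dehydrogenase and the citric acid cycle use pyruvate in the mitochondria. Of 6 pyruvate dehydrogenase genes 0 passed the test by edgeR (1, *pdb1*, had an unadjusted p under 0.05), while with cyclic loess scaling in limma-voom *pdb1* (adjusted p = 0.00817) and *dld1* (0.0408) passed. Of 12 citric acid cycle genes 1 was lower, the citrate synthase gene *cit1* (−0.44, adjusted p = 0.0264). Of 9 regulators of the glucose response 1 was higher, *scr1* (0.48, adjusted p = 0.0142), a repressor of glucose-repressed genes. The glucose receptor gene *git3* (−0.37, 0.0216) and the G protein alpha subunit gene *gpa2* (−0.46, 0.0164) were lower, while *ssp2*, for the catalytic subunit of the AMP-activated kinase, did not pass (−0.31, 0.0587). Of the genes called in these lists, *pfk1*, *tkt1*, *dak2*, and *atd2* passed in all 17 alternatives run. The others lost the call in some of them: *ntp1* in 2, *cit1* in 3, *git3* and *gpa2* in 4 each, *dak1* in 5, and *scr1* in 6. The length and GC offsets lowered *pfk1* to 0.30 and *tkt1* to 0.36, and gave −1.39 for *dak2* and −1.53 for *atd2*. Some genes that did not pass gained a call, *tal1* in 7 alternatives, *ssp2* in 6, *zwf1* in 5, and *tps1* and *atd1* in 4 each. So did *pdb1* in 3, and *hxk2* and *dld1* in 1 each.

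**Figure D5:**
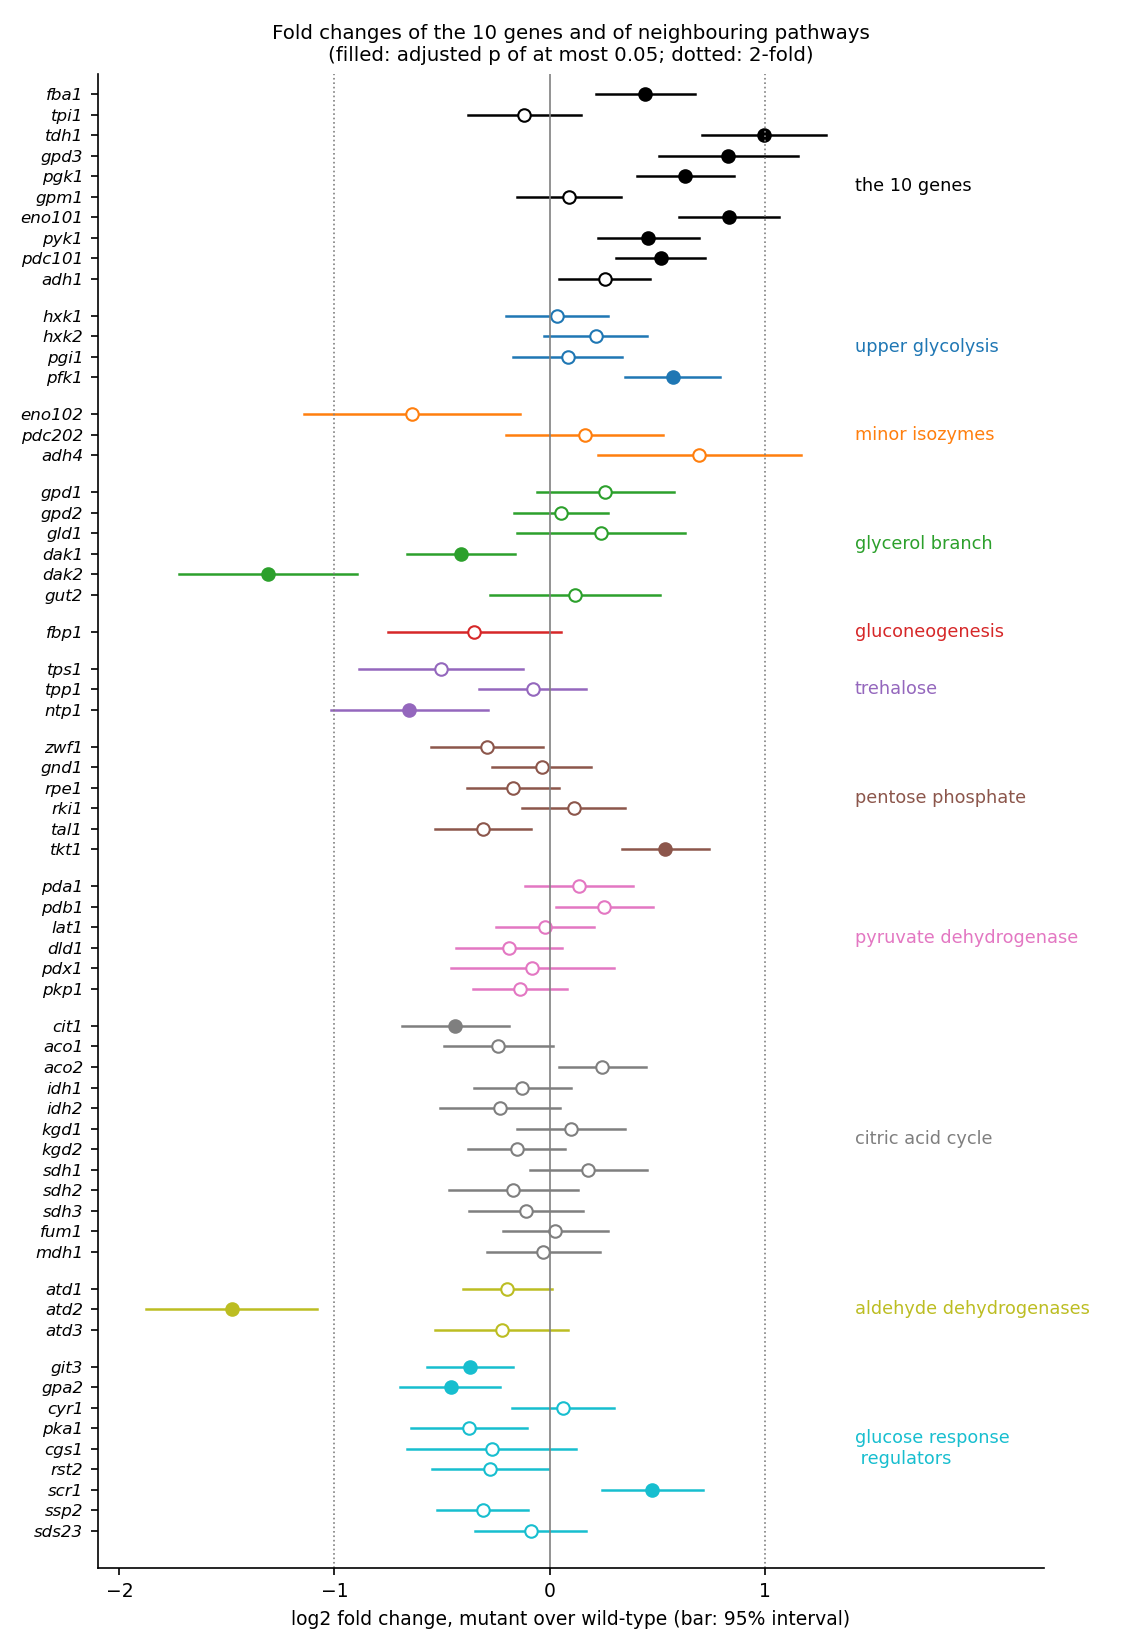
Log2 fold change, mutant over wild-type (horizontal axis), with 95% intervals from edgeR for the 10 genes and for 53 genes of neighbouring pathways; filled symbols have an adjusted p of at most 0.05, and dotted lines mark a 2-fold change. Of the 10 genes 7 are filled on the right, and of the others *pfk1*, *tkt1*, and *scr1*.

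Across the 6 libraries, 8 of the 10 genes varied alike: Pearson's r of each with the mean of the other 9, on log2 normalized counts, was 0.90 to 1.00. It was 0.59 for *gpm1* and −0.18 for *tpi1*. Of 4731 coding genes outside the 10, those most like their mean were SPAC8C9.04 (r = 0.996), *sod22* (0.995), SPAC1B2.06 (0.992), *pfk1* (0.988), and *ssa2* (0.988). *sod22* encodes a plasma membrane sodium antiporter and *ssa2* a heat shock protein of the Hsp70 family. These r values describe 6 libraries that fall into 2 strains, so a difference between the strains alone can raise them, and no p is given. The 8 genes that varied alike are those whose strains did not overlap. Of the 5 genes, *ssa2* (log2 fold change 0.75, adjusted p = 0.00172 from edgeR), *pfk1*, and SPAC8C9.04 (0.31, 0.0478) were higher.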

How the data were processed

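Whole-number counts per gene, not normalized, were deposited by the authors, who mapped paired reads with HISAT2 (version 2.1.0) to ASM294v2, converted them with SAMtools, and counted reads over exons with HTSeq (version 0.10.0). Its strand setting was not given in the sources used here. A DESeq2 comparison that the authors also deposited (fold changes, p-values) was not used.

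The quasi-likelihood test of edgeR (version 4.0.16, in R version 4.3.3; glmQLFit, then glmQLFTest) was run after filterByExpr and TMM scaling, with strain as the only factor and Benjamini-Hochberg adjustment over the 5947 genes kept. Scripts were tested on simulated data. A normalized count is a count over its library's effective size, times the mean effective size; each standard error came from the log2 fold change and F. Names, exon lengths, and GC content came from the ASM294v3 annotation, which paired 6836 of 6988 features by systematic ID. It gives SPAC1F8.07c the symbol *pdc101*, so a planned ratio of that gene to *pdc101* was void and ratios to *pdc201* and *pdc202* were added after seeing the data, as were those of *adh1* to *adh4* and *tdh1* to *tpi1*. Coding sequences were aligned with MAFFT version 7.526.

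The 10 genes and all gene lists were chosen with earlier results of these data known. Named were all 10, every isozyme, of each other list up to 4 genes of lowest p, and the 5 coding genes most like the mean of the 10; *mug106* was added for its overlap. *pyc1* was not paired with an ID and was not analysed here. Alternatives were RLE size factors, library totals, no low-count filter, at least 10 counts in every library, DESeq2 version 1.42.0, limma-voom (limma version 3.58.1), the replicate block, protein-coding genes alone, and leaving out each library. Length and GC offsets, the same with the block, and cyclic loess were added after seeing the data. With 3 cultures of the same strain per genotype, p-values weigh the strain difference against variation between cultures. Variation between independently built strains does not enter them.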

Additional observations from a re-analysis of the deposited data

How the results depend on the processing

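Of the 10 genes, *tdh1*, *gpd3*, *eno101*, and *pgk1* were higher at an adjusted p of at most 0.05 in all 17 alternatives run, *pdc101* in 15, *fba1* and *pyk1* in 11 each, *adh1* in 2, and *gpm1* and *tpi1* in 0. The count of higher genes, 7 as tested, was 4 with length and GC offsets and ranged from 4 to 8 when 1 library was left out, fits in which 1.70% to 14.3% of all genes were higher. The count lower was 0 in every alternative run. No gene met the study's cutoffs as tested; 1, *tdh1*, did so with RLE size factors (log2 fold change 1.01), no low-count filter (1.00), and DESeq2 (1.01), and 0 to 1 when 1 library was left out. With length and GC offsets *adh1* came to −0.016, *gpm1* to −0.080, *pgi1* to −0.010, and *hxk1* to −0.055, and with the replicate block and the same offsets to −0.017, −0.081, −0.009, and −0.052. *hxk1* was also −0.020 with protein-coding genes alone, and −0.053 to 0.126 when 1 library was left out; *tpp1* was −0.158 to 0.016 over those fits, above 0 without wild-type replicate 3. None of these passed the test in those fits, and the cause was not tested. Same-numbered libraries did not deviate together (r of −0.04, 0.01, and −0.10 over 5049 genes). These r values give no sign of a pairing by number but cannot exclude one. The fit with the replicate block called the same 7 genes. The difference in share of counts was 1.28 to 1.69 percentage points and that in the log2 ratio of *tdh1* to *gpd3* 0.04 to 0.32 when 1 library was left out. The planned ratio of SPAC1F8.07c to *pdc101* was not run. Depth limits the values of *eno102*, *pdc201*, and *pdc202*.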
